A study of Mus musculus with 4 samples.

Results

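The genes described here are the orphan and adhesion G protein-coupled receptors of the mouse, taken by name: every symbol made of Gpr and a number, or of Adgr, a family letter and a number, except Adgre1, which serves as a macrophage marker. The rule used no measured value and found 95 genes, 26 adhesion receptors and 69 Gpr genes, among the 54152 symbols of the deposited table. The RNA came from whole uteri, taken on day 4 of pregnancy from C57 mice. The p38α genotype is labelled ff in 2 libraries and dd in the other 2, and the series title names the groups as wild-type and p38α knockout. The labels give no mouse age, no Cre line and no deleted exon, and none states that replicates were different animals, so the p-values below measure only the spread between these 4 libraries.

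G protein-coupled receptors cross the membrane several times and pass an outside signal to G proteins, which act on enzymes such as the adenylyl cyclases that make cAMP. Adhesion receptors carry a long extracellular part that is often cut from the membrane part at an autoproteolysis site and binds matrix or neighbouring cells, and a short tethered stretch left behind can act as the agonist. Gpr names were given to receptors without a known ligand, although ligands have since been reported for several of them. Before implantation the uterus holds epithelium, stroma, vessels, muscle and leukocytes, and several of these receptors are known mainly from 1 such cell type.

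Mapk14, the gene for p38α, had 3074 and 2710 counts in ff replicates 1 and 2 and 2481 and 3429 counts in the libraries labelled dd. Its level was 89.7 ± 3.78 CPM (counts scaled to library depth) in ff and 109.1 ± 5.79 in dd (SD, n = 2 each), which was not called (adjusted p = 0.12). The check by the targeted gene therefore gave no lower level in dd, and a count summed over all exons could miss the loss of some of them. Every direction below is for the libraries labelled dd against those labelled ff. The libraries held 24619850 to 32451670 counts, and mitochondrially encoded genes took 5.24% to 6.97% of them. Together the 95 receptor genes held 1505 and 1425 CPM in the ff libraries and 1303 and 1418 CPM in the dd libraries.

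Of the 95 genes, 67 had enough counts to be tested, 22 adhesion receptors and 45 Gpr genes. A gene was called when edgeR's quasi-likelihood test gave an adjusted p under 0.05, with Benjamini-Hochberg adjustment over all 18530 genes tested. Called members numbered 8 of 67 (11.9%), beside 8.39% of all genes tested. In dd, 7 members fell (10.4% of 67, beside 3.86% of all genes) and 1 rose (beside 4.52%). The 7 that fell were Adgrl4, Adgra2, Adgrg2, Gpr153, Gpr162, Gpr83 and Gpr141, and the 1 that rose was Adgrb3. Another 16 members had an unadjusted p under 0.05 without being called, 11 with lower and 5 with higher fitted values. In all, 24 members (35.8%) were under that unadjusted threshold, beside 29.3% of all genes.

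Called or not, fitted log2 changes lay under 0 for 47 of the 67 tested members, against 49.7% of all genes tested. The median log2 change of the members was -0.40, beside 0.00 over all genes. For 34 members both dd libraries lay below both ff libraries in CPM, where 31.3% of all genes did so, and for 13 both lay above, where 31.6% of all genes did so. In the other 20 the groups overlapped. Of the Gpr genes, 34 of 45 lay under 0 with a median of -0.57. Of these 45, 4 (8.89%) were called, close to the 8.39% of all genes tested. Of the adhesion receptors, 13 of 22 lay under 0 with a median of -0.20, and 4 (18.2%) were called, beside the same 8.39%. The difference between these families was not tested. With library size alone in place of trimmed-mean (TMM) scaling, the calls over all genes moved from 838 higher and 716 lower to 751 higher and 1020 lower, and those among the members from 1 and 7 to 1 and 11.

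**Figure D1:**
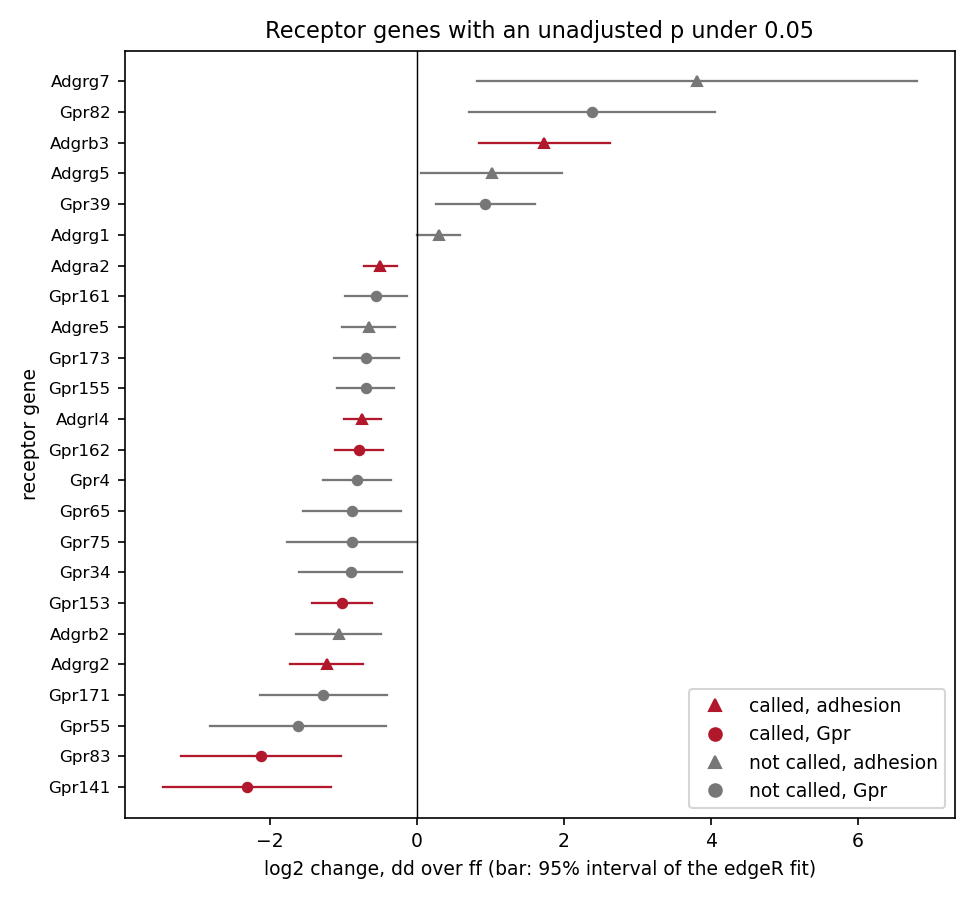
Log2 change, dd over ff, of the 24 receptor genes with an unadjusted p under 0.05, ordered by change, with 95% intervals from the edgeR fit; red marks the 8 called genes. The 7 genes called lower lie between -2.31 and -0.50, Adgrb3 lies at 1.73, and the interval of Adgrg7, whose estimate of 3.81 was not called, runs from 0.81 to 6.80.

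Per length, a small number of receptors made up most of the signal. The 8 genes with the highest mean over all 4 libraries in FPKM (fragments scaled by gene length and depth) held 58.4% of the members' summed FPKM, 34 members reached 1 FPKM, 9 reached 10 FPKM, and 33 stayed under 0.1 FPKM. Adgra2 stood first at 29.4 FPKM, followed by Adgrg7 at 27.3, Gpr108 at 24.5, Adgrl1 at 18.0, Adgrf5 at 16.9, Adgrl4 at 16.5, Adgrg1 at 14.8 and Gpr180 at 14.2. The place of Adgrg7 rests on the dd libraries, since its mean was 3.65 FPKM in ff and 51.0 FPKM in dd. Adgra2 led in ff with 34.5 FPKM, whereas in dd Adgrg7 and Gpr108, at 25.2 FPKM, stood above its 24.4 FPKM.

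**Figure D2:**
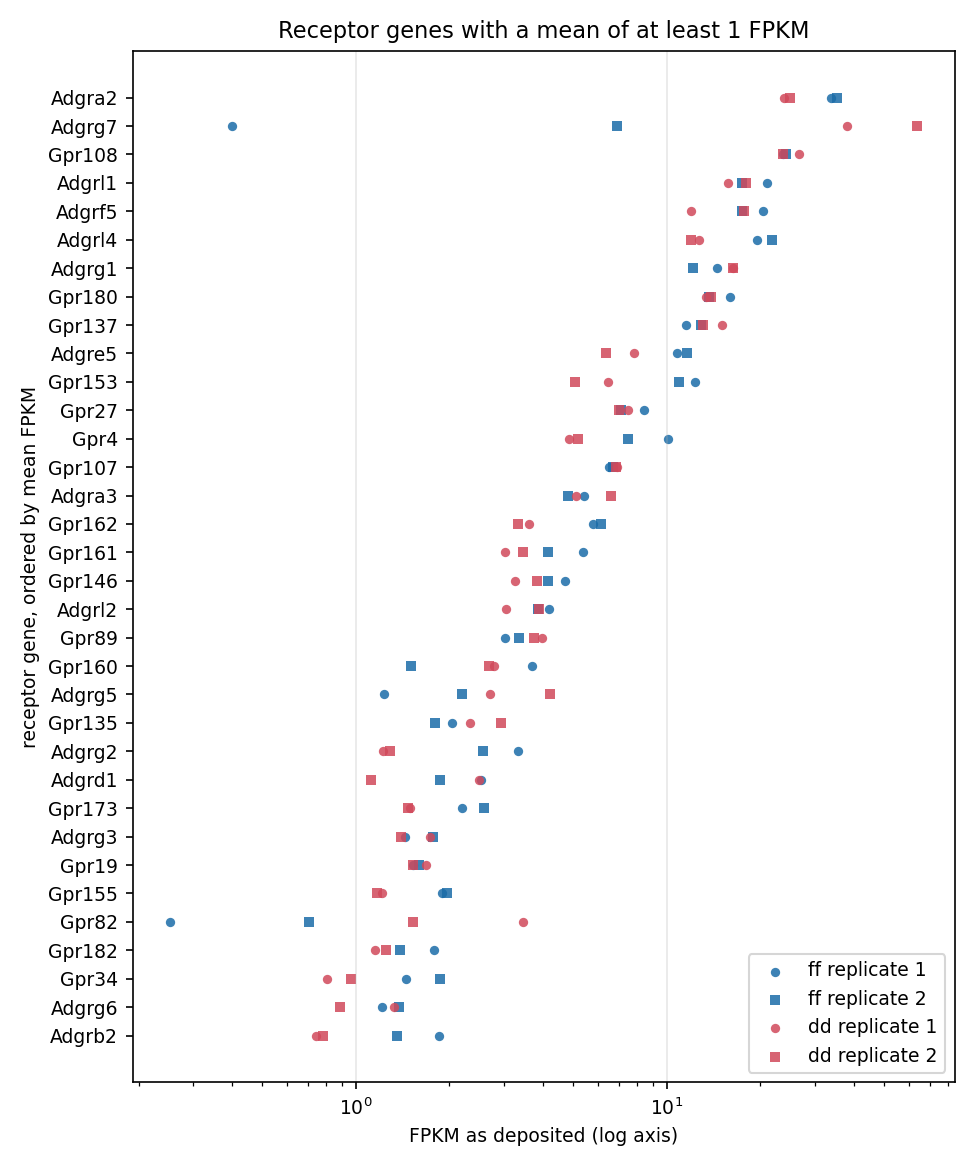
Deposited FPKM (log axis) of the receptor genes with the highest mean level in each of the 4 libraries, ordered by that mean. Adgra2 has the highest mean over all 4 libraries, 29.4 FPKM, though not in dd, and the points of Adgrg7 spread from 0.401 FPKM in ff replicate 1 to 64.0 FPKM in dd replicate 2.

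Among the adhesion receptors known from vessels, Adgrl4 and Adgra2 fell and Adgrf5 was not called. Adgrl4, an endothelial receptor tied to vessel sprouting (mm10 chromosome 3, 151437887 to 151545086, plus strand), had 2980 and 3112 counts in ff against 1387 and 1651 in dd. The groups stood well apart, at 94.7 ± 7.35 CPM in ff and 56.6 ± 2.97 in dd (SD, n = 2), or 20.6 ± 1.56 and 12.3 ± 0.557 FPKM. The log2 change was -0.74 (SE 0.0992, adjusted p = 0.0267), a level 1.67-fold lower in dd. With any 1 library left out the log2 change lay between -0.82 and -0.67 and the call was lost each time, with adjusted p from 0.0502 without ff replicate 2 to 0.0870 without dd replicate 2.

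Adgra2, which with the membrane protein Reck passes Wnt7 signals in brain vessels (chromosome 8, 27085583 to 27123436, plus strand), had 6464 and 6372 counts in ff against 3284 and 4328 in dd. In CPM both dd libraries lay below both ff libraries, at 141 ± 2.74 against 199 ± 7.34 (SD, n = 2), and the FPKM means were 24.4 and 34.5. The log2 change of -0.50 (SE 0.0875, adjusted p = 0.0398) was the smallest among the called members, 1.41-fold lower. The call was lost with each library left out, at adjusted p from 0.0937 to 0.136. Its exons overlap those of Brf2 on the opposite strand, which had 366 and 385 counts in ff against 284 and 353 in dd and was not called. Reck itself had 1627 and 1769 counts in ff against 1157 and 1720 in dd, with a log2 change of 0.00 (adjusted p = 0.995).

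Adgrf5, known from lung and vessel linings, had 6101 and 4919 counts in ff against 2569 and 4810 in dd. The groups overlapped in CPM, with 171 ± 17.9 in ff and 134 ± 35.4 in dd, and the log2 change of -0.35 (95% interval -0.88 to 0.18) was not called (adjusted p = 0.315). The proton sensor of endothelial cells, Gpr4, had 969 and 675 counts in ff against 333 and 449 in dd, or 25.4 ± 5.26 and 14.5 ± 0.515 CPM (SD, n = 2). Both dd libraries of Gpr4 lay below both ff libraries, without a call (log2 change -0.81, adjusted p = 0.0621). Gpr182, a vessel receptor that takes up chemokines, had 6.27 ± 1.11 CPM in ff and 4.74 ± 0.246 in dd and was not called (adjusted p = 0.295).

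Endothelial marker genes moved in the same direction as these receptors. Of 12 listed endothelial markers, 11 were called lower and none higher, with a median log2 change of -0.94. Their summed level was 2051 and 1749 CPM in the ff libraries and 964 and 956 CPM in the dd libraries, and no marker of the list was at 0. Tek fell by 1.47, Tie1 by 0.96 and Cdh5 by 1.36 on the log2 scale. Stromal markers lay lower as well, with 11 of 12 under 0, 1 above, 5 called lower and a median of -0.58. The part of either list in the receptor changes was not tested. In whole uterus, fewer cells of a type and less RNA per cell cannot be told apart.

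**Figure D3:**
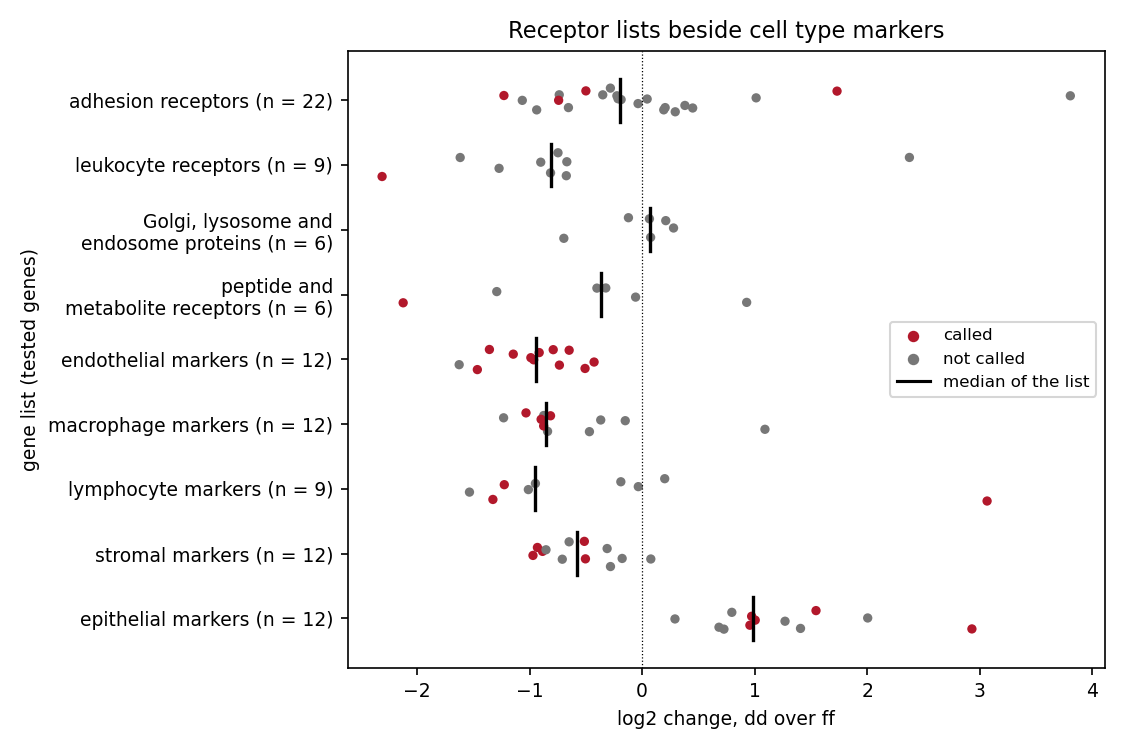
Log2 change, dd over ff, of each tested gene in the receptor lists and cell type marker lists; red points are called and the bar is the median of the list. Endothelial and macrophage markers have medians of -0.94 and -0.86 and epithelial markers a median of 0.99, and the tested leukocyte receptors lie under 0 except Gpr82 at 2.38.

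The adhesion receptors of the G family went both ways. Adgrg2, best known from the efferent ducts of the male tract where it serves fluid uptake (chromosome X, 160390690 to 160498070, plus strand), had 583 and 422 counts in ff against 153 and 205 in dd. It fell from 15.5 ± 2.80 to 6.62 ± 0.206 CPM (SD, n = 2), with both dd libraries under both ff libraries and a log2 change of -1.23 (SE 0.190, adjusted p = 0.0327). The call held without ff replicate 2 (adjusted p = 0.0364) and was lost with any other library left out, at adjusted p up to 0.110. Gm15241, which overlaps Adgrg2 on the opposite strand, had at most 2 counts in a library.

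Adgrg7, an orphan adhesion receptor best known from intestinal epithelium (chromosome 16, 56724609 to 56795855, minus strand), had the largest difference of the tested members without a call. Its counts were 36 and 582 in ff and 2442 and 5209 in dd. Scaled, that was 1.08 and 18.7 CPM in ff and 103 and 172 CPM in dd, so the groups stood apart while the ff libraries differed 17.3-fold from each other. The log2 change was 3.81 (SE 1.16, 95% interval 0.81 to 6.80, adjusted p = 0.111), from group means of 9.88 ± 12.4 CPM in ff and 138 ± 48.5 in dd (SD, n = 2). Without ff replicate 2 the log2 change was 6.98 and was called (adjusted p = 0.0144), and without ff replicate 1 it was 2.88 (adjusted p = 0.0655). In the authors' deposited table the fold of Adgrg7 was 13.97, with an unadjusted p of 1.66e-13.

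Epithelial markers, and 2 of the oviduct and cilia markers, also stood higher in dd beside Adgrg7. Of 12 epithelial markers, 5 were called higher and none lower, with summed levels of 1226 and 1486 CPM in ff and 2881 and 3380 in dd. Krt8 rose by 1.55, Krt18 by 0.97 and Cdh1 by 0.96 on the log2 scale. Of 7 tested oviduct and cilia markers 2 were called, both higher: Ovgp1, an oviduct secretory glycoprotein, by 2.25 and Foxj1, the regulator of motile cilia, by 1.88. The oviduct and cilia list summed to 57.7 and 61.8 CPM in ff and 157 and 161 CPM in dd, of which Ovgp1 alone held 25.9 ± 1.48 and 123 ± 2.01 CPM (SD, n = 2). The median of the 7 was 0.36, with 4 above 0 and 3 below, the latter Ccdc39, Cfap43 and Tekt1. The part of either list in the value of Adgrg7 was not tested.

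The remaining receptors of the G family gave no call. Adgrg1, a collagen III receptor known from cortex formation, had 2609 and 2052 counts in ff against 2099 and 2667 in dd, or 72.1 ± 8.84 and 88.4 ± 0.563 CPM, and its log2 change of 0.29 was not called (adjusted p = 0.166). Adgrg5, a neighbour of Adgrg1 on chromosome 8 with 31470 bases between them, had 129 and 215 counts in ff against 201 and 400 in dd. For Adgrg5 both dd libraries lay above both ff libraries in CPM, at 10.9 ± 3.32 against 5.39 ± 2.14, without a call (log2 change 1.01, adjusted p = 0.156). Adgrg3, which lies 3474 bases beyond Adgrg1 and is known from granulocytes, had a log2 change of -0.04, and Adgrg6, which Schwann cells need to form myelin, of -0.22, neither called.

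The B family, named as brain-specific angiogenesis inhibitors, held the member that rose. Adgrb3, a synaptic receptor for C1q-like proteins (chromosome 1, 25067476 to 25829707, minus strand), had 13 and 12 counts in ff against 36 and 33 in dd. All 4 libraries held few reads of it, at 0.388 ± 0.00373 CPM in ff and 1.31 ± 0.307 in dd (SD, n = 2). The log2 change of 1.73 (SE 0.343, adjusted p = 0.0498) lay just inside the threshold, and leaving out any library gave adjusted p from 0.103 to 0.196. Adgrb2 had 401 and 274 counts in ff against 115 and 154 in dd, or 10.4 ± 2.30 and 4.98 ± 0.153 CPM. Its groups did not overlap, and its log2 change of -1.07 was just outside the threshold (adjusted p = 0.0565).

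In the L family, Adgrl4 was the only call among 4 tested genes, beside 8.39% of all genes tested. The other members, Adgrl1, Adgrl2 and Adgrl3, are the latrophilins, which bind teneurins and Flrt proteins. Adgrl1 had 6004 and 4671 counts in ff against 3216 and 4664 in dd, or 165 ± 21.5 and 145 ± 12.6 CPM with overlapping groups (log2 change -0.19, adjusted p = 0.396). Log2 changes of Adgrl2 and Adgrl3 were -0.21 and 0.45, without calls. In the E family, Adgre5, the leukocyte receptor for Cd55, had 1347 and 1363 counts in ff against 701 and 722 in dd. That made 42.1 ± 2.33 and 26.8 ± 4.13 CPM, with no overlap and no call (log2 change -0.66, adjusted p = 0.0575). Adgrd1, which mice need to release embryos from the ampulla of the oviduct, had 18.2 ± 3.84 CPM in ff and 15.0 ± 8.19 in dd, with overlapping groups and a log2 change of -0.28 that was not called.

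**Figure D4:**
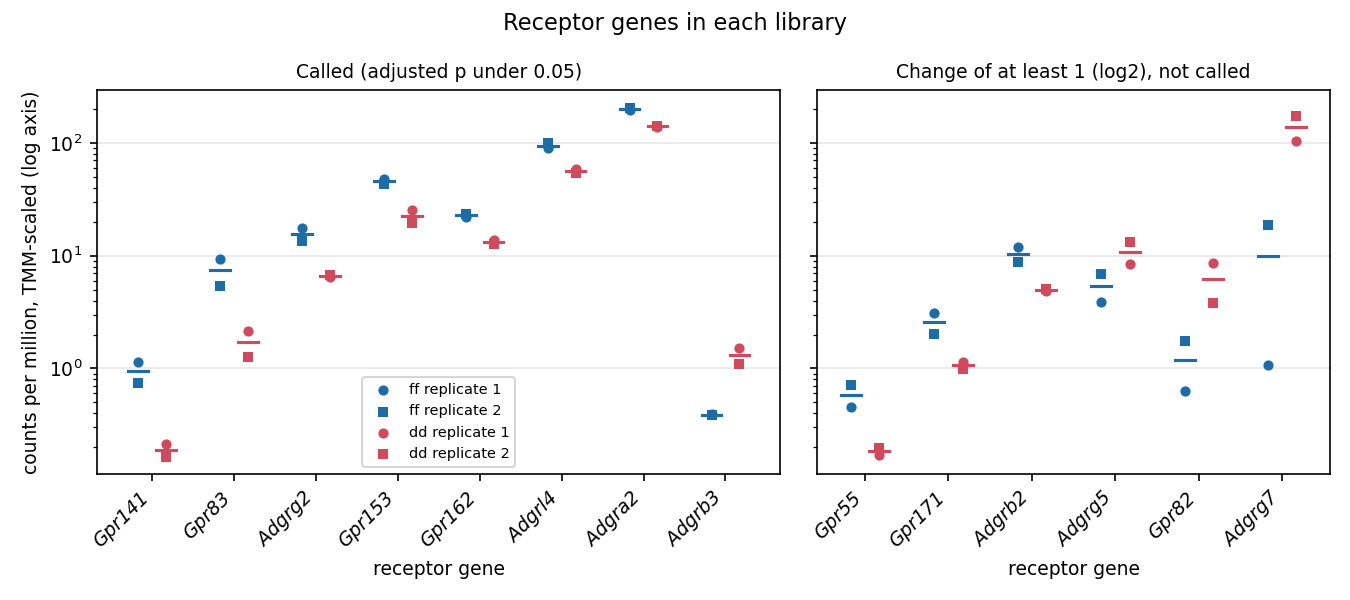
TMM-scaled CPM (log axis) of the 8 called receptors (left) and of the 6 receptors with a log2 change of at least 1 in size and an unadjusted p under 0.05 that were not called (right), in each library, with bars at the group means. The groups stand apart for every gene shown, and the ff points of Adgrg7, at 1.08 and 18.7 CPM, lie farthest from each other.

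Among the class A Gpr genes, Gpr153 and Gpr162 are related orphan receptors, and both fell. Gpr153 (chromosome 4, 152274232 to 152285337, plus strand) had 1607 and 1341 counts in ff against 600 and 596 in dd. Its level went from 45.7 ± 3.69 to 22.5 ± 4.04 CPM (SD, n = 2), a log2 change of -1.02 (SE 0.158, adjusted p = 0.0326). Gpr162 (chromosome 6, 124858444 to 124863983, minus strand) had 741 and 734 counts in ff against 328 and 385 in dd, or 22.9 ± 0.922 and 13.3 ± 0.829 CPM. Its replicates lay close together and its log2 change was -0.79 (SE 0.126, adjusted p = 0.0345). The call of Gpr153 held without dd replicate 1 (adjusted p = 0.0417) and was lost with each other library left out, at adjusted p up to 0.112, and that of Gpr162 was lost with every library, at adjusted p from 0.0791 to 0.107. Of the other 13 tested Gpr genes in no role list, none was called, and their log2 changes ran from -0.89 for Gpr75 to 0.45 for Gpr135.

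Receptors for peptides and metabolites held 1 call among 6 tested genes, beside 8.39% of all genes tested. Gpr83, a receptor for the neuropeptide PEN found in brain and regulatory T cells (chromosome 9, 14860210 to 14870789, plus strand), had 312 and 169 counts in ff against 51 and 38 in dd. It fell 4.36-fold, from 7.40 ± 2.79 to 1.71 ± 0.639 CPM (SD, n = 2), with a log2 change of -2.13 (SE 0.420, adjusted p = 0.0495). The ff libraries of Gpr83 differed from each other, at 9.37 and 5.43 CPM, yet both stood above the dd values of 2.16 and 1.25. Without ff replicate 2 the call held (adjusted p = 0.0452), and without each other library it was lost, at adjusted p up to 0.147. Gpr39, a zinc-sensing receptor, had 64 and 46 counts in ff against 76 and 99 in dd and was not called (log2 change 0.93, adjusted p = 0.0968), and Gpr37, a receptor reported to bind prosaposin, had 26 and 51 against 7 and 20 (log2 change -1.29, adjusted p = 0.212).

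Among the 9 tested receptors known from leukocytes 1 was called, beside 8.39% of all genes tested. It was Gpr141, and it fell. Of the 13 listed, 9 were tested, and in CPM 8 had both dd libraries below both ff libraries while 1 had both above, beside 31.3% and 31.6% of all genes. Their median log2 change was -0.81. Gpr141, an orphan receptor of myeloid cells (chromosome 13, 19749682 to 19824257, minus strand), had 38 and 23 counts in ff against 5 and 5 in dd. Its level of 0.940 ± 0.285 CPM in ff and 0.188 ± 0.0329 in dd (SD, n = 2) gave a log2 change of -2.31 (SE 0.443, adjusted p = 0.0468), 4.97-fold lower. The call was lost with each library left out, at adjusted p from 0.0712 to 0.204.

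Other leukocyte receptors lay in the same direction without calls. Gpr171, reported as a receptor for the peptide BigLEN and present on T cells, had 104 and 63 counts in ff against 27 and 30 in dd (log2 change -1.27, adjusted p = 0.0856). Gpr55, which responds to lysophosphatidylinositol, had 15 and 22 against 4 and 6 (log2 change -1.62, adjusted p = 0.0989). Gpr34, a lysophosphatidylserine receptor of macrophages and microglia, had 101 and 122 against 40 and 61 (log2 change -0.90, adjusted p = 0.108). Gpr183, the oxysterol receptor that guides B cells, went from 1.82 ± 0.309 to 1.04 ± 0.261 CPM (log2 change -0.81, adjusted p = 0.180).

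Gpr82, an orphan receptor, was the exception in the leukocyte list. It had 21 and 55 counts in ff against 205 and 115 in dd, or 0.631 and 1.77 CPM against 8.68 and 3.80. Both dd values lay above both ff values, but replicates of each group differed more than 2-fold and the log2 change of 2.38 (95% interval 0.70 to 4.05) was not called (adjusted p = 0.0906). With a library left out it ranged from 1.67 without dd replicate 1 to 3.29 without ff replicate 2, still without a call. Gpr82 and Gpr34 are neighbours on the plus strand of chromosome X, with 20504 bases between them, and had values in opposite directions. Both lie within an intron of Cask, which had 1614 and 1489 counts in ff against 979 and 1258 in dd and was not called (adjusted p = 0.167). Cask was chosen for display after its values were seen.

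Leukocyte markers went both ways, with more called lower than higher in the macrophage and lymphocyte lists. Of 12 macrophage and monocyte markers, 5 were called lower and none higher, with summed levels of 582 and 679 CPM in ff and 475 and 462 in dd. Adgre1, the adhesion receptor left out of the members, was among these 5 (log2 change -1.03, adjusted p = 0.0409). C1qa fell by 0.90, C1qb by 0.81 and C1qc by 0.88 on the log2 scale, while Cd14 had both dd libraries above both ff libraries without a call (log2 change 1.09, adjusted p = 0.0604). Of 9 tested lymphocyte markers, Ptprc, carried by all leukocytes, and Nkg7, of cytotoxic cells, fell by 1.23 and 1.33, and Cd79a, of the B cell lineage, rose by 3.07. The T cell genes Cd3e, Cd3d and Cd8a had log2 changes of 0.20, -0.03 and -0.19, without calls. Cd4 had both dd libraries below both ff libraries without a call (log2 change -1.01, adjusted p = 0.246). So did the NK cell genes Ncr1 (log2 change -0.95) and Klrb1c (log2 change -1.54). Of the 9 tested lymphocyte markers, 2 lay above 0 and 7 below. The list summed to 79.2 and 72.0 CPM in ff and 40.8 and 43.3 in dd, with Ptprc at 46.5 ± 1.61 and 19.9 ± 1.64 CPM of that (SD, n = 2). Plasma cell markers had 4 of 8 called higher and none lower. No marker of either list was at 0, and the part of these markers in the receptor values was not tested.

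Proton-sensing receptors, which raise cAMP or inositol phosphates as the surroundings turn acid, gave no call by edgeR among 4 tested. At an unadjusted p under 0.05 there were 2, both lower, and DESeq2 called 1, Gpr4. Beside Gpr4, Gpr65 of lymphoid and myeloid cells had 76 and 77 counts in ff against 32 and 37 in dd (log2 change -0.88, adjusted p = 0.101). Gpr132, known from macrophages and T cells, had 75 and 65 counts in ff against 46 and 63 in dd, with a log2 change of -0.11 and no call.

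Gpr-named proteins of the Golgi, lysosome and endosome, which are not classical surface receptors, showed small differences apart from Gpr155. None of the 6 tested was called by edgeR, 1 was lower at an unadjusted p under 0.05, and DESeq2 called that gene, Gpr155. The median was 0.07, with a range from -0.70 to 0.28. Gpr108, a Golgi protein that some viral vectors need for entry, had 2249 and 2160 counts in ff against 1811 and 2048 in dd, or 68.5 ± 1.26 and 72.1 ± 6.39 CPM with overlapping groups. Its log2 change was 0.08 (95% interval -0.18 to 0.33), and its sign turned with library size alone as scaling, where it was -0.0098, and without dd replicate 1, where it was -0.011. Gpr180 had 996 and 803 counts in ff against 597 and 785 in dd, or 27.9 ± 2.93 and 25.6 ± 0.457 CPM (log2 change -0.12, 95% interval -0.44 to 0.19). Gpr107 had 84.3 ± 1.94 CPM in ff and 88.1 ± 0.800 in dd, a log2 change of 0.06 with an interval of -0.14 to 0.27. The low end of the list was Gpr155, a lysosomal cholesterol sensor, with 422 and 409 counts against 193 and 235 (log2 change -0.70, adjusted p = 0.0590).

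Members with few reads were left out of the test by its filter. Of these 28 genes, 6 had no count in any library (Adgrg4, Gpr101, Gpr139, Gpr25, Gpr26 and Gpr6), 12 had 1 to 10 counts over the 4 libraries, and 10 had more. With no filter 89 members were tested, and the 15 calls of that fit were all among the 67. For a gene at 0, the upper limit that a count of 0 allows is 3 counts, or 0.0901 to 0.127 CPM in these libraries. Gpr3, a constitutively active receptor that holds oocytes in meiotic arrest, had 7 and 3 counts in ff against 0 and 0 in dd. With the ff counts taken as they stand and a floor of 3 counts over the dd group, that is at least 2.79-fold lower. A count of 0 gives no estimate of the fold itself. The counting error of the ff counts and the spread between libraries are not part of that value, and Gpr3 was left out of the main test.

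The members' own signalling partners were counted from lists of G protein subunits, cyclases, arrestins, receptor kinases and ligands. Of 68 tested, 10 were called (14.7%, beside 8.39% of all genes), 9 lower and 1 higher, with a median log2 change of -0.17. Gnai1, an inhibitory alpha subunit, had 3062 and 2262 counts in ff against 961 and 1361 in dd and fell by 0.94 on the log2 scale (adjusted p = 0.0317). The gamma subunit Gng2 fell by 0.71 (adjusted p = 0.0396), and Gng5 was the gene that rose, by 0.61 (adjusted p = 0.0264). Of 8 tested adenylyl cyclases, Adcy4 fell from 1983 and 1675 counts to 601 and 626 (log2 change -1.30, adjusted p = 0.0218) and Adcy1 from 465 and 612 to 184 and 233 (log2 change -1.12, adjusted p = 0.0462). Arrb1, an arrestin that ends receptor signalling, had 8739 and 5982 counts in ff against 2163 and 3254 in dd (log2 change -1.19, adjusted p = 0.0325). With a library left out, 0 to 5 of these partner genes were called lower and none higher.

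Of 18 tested ligands and partners of adhesion receptors, 4 were called, all lower. Col4a1 and Col4a2, basement membrane collagen chains that bind Adgrg6, fell by 1.21 (adjusted p = 0.0279) and 1.03 (adjusted p = 0.0354) on the log2 scale. The laminin chains Lama2 and Lamb1 fell by 0.92 (adjusted p = 0.0371) and 0.67 (adjusted p = 0.0336). Col3a1, the ligand of Adgrg1, had 151848 and 124532 counts in ff against 66797 and 57687 in dd without a call (log2 change -0.86, adjusted p = 0.0933), and Cd55, the ligand of Adgre5, had a log2 change of -0.24 (adjusted p = 0.344). None of 7 tested genes for ligands of Gpr receptors was called by edgeR, while 1 was lower at an unadjusted p under 0.05 and DESeq2 called 1. Stromal markers, 5 of 12 called lower and none higher, summed to 15013 and 13218 CPM in ff and 10432 and 7250 in dd, and their part in the ligand values was not tested.

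The calls among the members depended on single libraries. Calls over all genes also fell with each library left out, and fewer samples alone lower such counts. With ff replicate 1 left out, or with dd replicate 2 left out, no member was called by edgeR, although 6 higher and 15 lower, and 2 higher and 17 lower, were then under an unadjusted p of 0.05. Without dd replicate 1 only Gpr153 was called, and without ff replicate 2 the 4 calls were Adgrg2, Adgrg7, Gpr4 and Gpr83. Of the 8 calls with all libraries, 5 were made in none of these 4 fits and 3 in 1 of them. The direction of all 8 was the same in every such fit. Since their groups did not overlap in CPM, leaving out 1 library could hardly turn a direction, so this adds no support to the calls. Adgrg2, Adgrl4 and Gpr153 were called under every alternative scaling, filter and test that kept all 4 libraries. DESeq2 called 12 members, with Adgrb2, Adgre5, Gpr155, Gpr173, Gpr4 and Gpr82 added and Adgrb3 and Gpr141 lost. Both limma fits called 5, all among the 8: Adgra2, Adgrg2, Adgrl4, Gpr153 and Gpr162. The authors' deposited table gave an unadjusted p under 0.05 to 16 of the 95 members (16.8%), 6 with a fold above 1 and 10 below, beside 5.82% of all 54152 symbols. Among the genes tested here it did so for 12 of 67 members (17.9%), beside 13.2% of 18530 genes.

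**Figure D5:**
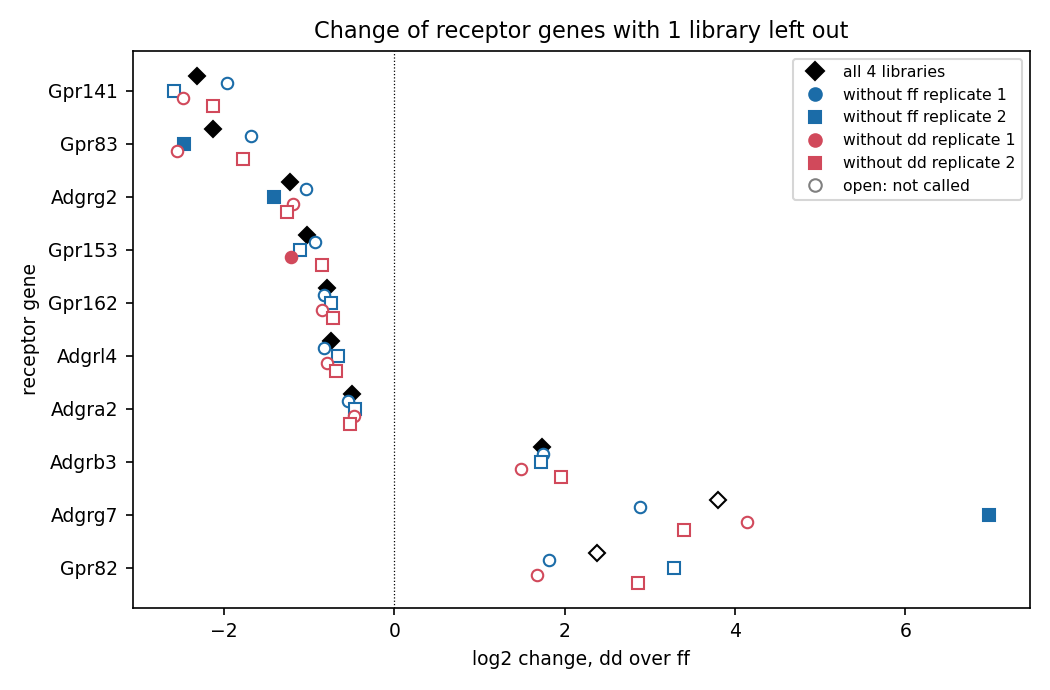
Log2 change, dd over ff, of the 8 called receptors, Adgrg7 and Gpr82 with all 4 libraries (diamonds) and with each library left out; open symbols were not called. Adgra2 stays between -0.54 and -0.47, while Adgrg7 moves from 2.88 without ff replicate 1 to 6.98 without ff replicate 2.

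The promoters of 4 receptors that fell are printed here, and they differ in base composition and in the motifs found. Gpr83 and Gpr141 are the only called members with a motif match. Gpr153 also fell and is not printed, with windows at 76.8% and 81.6% G and C and no match. Part of the difference between the printed sequences comes from this choice. Each run is the 250 bases before the RefSeq start of the gene in GRCm38.p6, printed 5′ to 3′ on the strand of the gene, with motif matches in capitals. They lie at chr9:14859960-14860209 on the plus strand for Gpr83, chr13:19824258-19824507 on the minus strand for Gpr141, chrX:160390440-160390689 on the plus strand for Adgrg2 and chr3:151437632-151437881 on the plus strand for Adgrl4.
Gpr83: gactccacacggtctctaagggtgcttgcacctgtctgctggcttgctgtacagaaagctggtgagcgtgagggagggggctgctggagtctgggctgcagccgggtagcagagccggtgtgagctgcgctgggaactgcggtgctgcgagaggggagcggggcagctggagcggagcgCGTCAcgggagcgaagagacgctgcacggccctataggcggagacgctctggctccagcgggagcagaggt
Gpr141: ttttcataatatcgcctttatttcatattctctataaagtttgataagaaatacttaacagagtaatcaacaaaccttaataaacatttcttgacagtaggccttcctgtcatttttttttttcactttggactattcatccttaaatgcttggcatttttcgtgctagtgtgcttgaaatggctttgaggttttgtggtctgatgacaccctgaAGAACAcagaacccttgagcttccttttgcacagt
Adgrg2: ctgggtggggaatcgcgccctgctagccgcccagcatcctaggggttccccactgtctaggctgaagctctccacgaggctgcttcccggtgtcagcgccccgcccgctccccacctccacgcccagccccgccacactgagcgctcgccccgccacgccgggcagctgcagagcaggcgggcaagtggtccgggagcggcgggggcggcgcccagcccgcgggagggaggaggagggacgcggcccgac
Adgrl4: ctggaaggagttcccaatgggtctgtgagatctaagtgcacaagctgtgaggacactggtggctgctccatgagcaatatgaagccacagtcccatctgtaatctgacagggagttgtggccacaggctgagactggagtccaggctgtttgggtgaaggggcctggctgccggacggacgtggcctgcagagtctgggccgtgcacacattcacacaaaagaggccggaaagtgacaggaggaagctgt

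Motifs were searched on both strands of these 250 bases, with each motif counted apart. The motif TGACG, a core of cAMP response elements, was found in Gpr83 at position 180, read on the other strand, and in 17.8% of all 32851 windows. The motif TGTTCT, a core of progesterone response elements, was found in Gpr141 at position 216, read on the other strand, and in 16.1% of all windows. The E-box CACGTG, in 6.02% of all windows, and the AP-1 site TGANTCA, in 6.75%, were in none of the 7 windows of the 6 called members that had 1. Over the 89 windows of 69 members, TGACG was in 19, TGTTCT in 10, TGANTCA in 6 and CACGTG in 1. The share of G and C was 75.6% for Adgrg2, 66.8% for Gpr83, 56.8% for Adgrl4 and 34.8% for Gpr141, beside a median of 52.4% over all windows.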

How the data were processed

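Poly-A RNA of whole uteri was sequenced in 4 libraries, 2 with the p38α label ff and 2 with dd, made with TruSeq kits per the labels. STAR, edgeR and mm10 are named in the submitters' processing notes, without versions; the counter, any use of strand and the test behind the p-value are not named there or in the labels. The authors deposited whole-number counts, FPKM values per the file headers (the series text says RPKM), rescaled counts (a signal column, not tested here), an unadjusted p-value and a fold, which is the dd to ff ratio. Sharing of exon bases with a gene on the opposite strand was found for 21 of the 67 tested members, whose reads could not be told apart without strand.

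Counts were tested with edgeR 4.0.16 in R 4.3.3 (filterByExpr, TMM scaling, quasi-likelihood F test, Benjamini-Hochberg adjustment over 18530 genes, no replicate block). CPM are TMM-scaled, the SE is the size of the log2 change divided by the square root of F, and intervals are 95% ones of that fit, for these libraries only. Floors cover only the counting error of a count of 0. The script was tested on simulated data. Replicates differed by more than sampling noise (chi-square per degree of freedom 35.3 in ff and 36.0 in dd), so none was counted as a copy. Full values were given to called members and to the 8 with the highest FPKM. They were also given to members not called with a log2 change of at least 1 in size and an unadjusted p under 0.05. Called genes of pathway lists were named up to 4 per list and those of marker lists up to 3, with Adgre1 added. Members and lists were chosen with earlier results of these data known. Genes were placed by GENCODE M21 (mm10, all 95 matched) and promoters come from RefSeq (GRCm38.p6, 69 of the 95 matched). DESeq2 1.42.0 and limma 3.58.1 served as alternatives. Some members are not reported here by name. Marker lists of muscle, plasma cells, granulocytes, red cells, ovary, nerve and mesothelium were also read.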

Additional observations from a re-analysis of the deposited data

How the results depend on the processing

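Members called higher and lower (1 and 7 with edgeR's quasi-likelihood test) became 3 and 12 with no filter, 1 and 11 with library size alone and 1 and 11 with DESeq2. No member was called higher with upper quartile factors, a filter of 1 CPM in 2 libraries, limma-voom or limma-trend on log2(FPKM + 0.5), where 5, 5, 6 and 5 were higher at an unadjusted p under 0.05. Over all genes, 838 higher and 716 lower calls became 1584 and 1363 with no filter and 1520 and 1344 with DESeq2; partner genes went from 1 and 9 to 2 and 14 and to 3 and 15. With a library left out, where a lone library is assumed to vary like the other group, members called ranged from 0 to 1 higher and 0 to 3 lower, all genes from 62 to 726 higher and 28 to 472 lower, and partner genes from 0 to 0 higher and 0 to 5 lower. Fewer samples alone lower such counts.

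The replicate number as a block gave 1 member higher and 4 lower, losing Adgra2, Adgrb3, Gpr141 and Gpr162 and adding Adgrg7; the numbers were not shown to pair libraries (r = 0.0129 over genes between the deviations of ff and dd replicate 1). Gpr108 was reversed with library size alone (-0.0098) and without dd replicate 1 (-0.011), from 0.08, and was 0.16 without dd replicate 2; the cause was not tested. Of the values of single members under alternatives, 190 kept direction and side of the threshold, 44 lost their call and 9 gained one. Adgrb3 and Gpr141 rest on 5 to 38 counts a library.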

Other observations

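Some marker lists not set beside a receptor above also differed between the groups. The plasma cell list had a median log2 change of 2.82, and of 5 tested red cell markers 4 were called higher. The remaining red cell marker, Hba-a2, had 205 and 233 counts in ff against 51 and 4 in dd, without a call (log2 change -2.62, adjusted p = 0.174). None of 8 smooth muscle markers was called by edgeR, DESeq2 or limma, 0 were under an unadjusted p of 0.05 in the edgeR fit, and their summed level overlapped between groups, at 8135 and 6925 CPM in ff and 11168 and 6334 in dd. Of 8 tested granulocyte and mast cell markers 1 was called higher, with Elane at 0 in all libraries. Of these 8, 3 lay above 0 and 5 below, with a median log2 change of -0.58. Of 4 tested ovary markers 1 was called higher and 3 lay below 0, with Fshr and Hsd3b1 at 0. Of 6 tested nerve and glia markers 1 was called higher, with 3 above 0 and 3 below. Of 4 tested mesothelium and fat markers none was called by edgeR, DESeq2 or limma and 0 were under an unadjusted p of 0.05.

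In the authors' deposited table Gpr82 had a fold of 5.18 with p = 3.78e-06, Gpr83 a fold of 0.229 with p = 2.44e-05 and Gpr141 a fold of 0.202 with p = 0.000379. For Adgrl4 the authors' deposited table had a fold of 0.597 (unadjusted p = 0.108), where the edgeR fit above gave it the lowest adjusted p of the members. For Adgra2 the authors' deposited table had a fold of 0.707 (unadjusted p = 0.277).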
